A study of Rattus norvegicus with 6 samples.

Results

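The 36 genes described here encode chemokines, inflammatory cytokines, leukocyte adhesion molecules, pattern receptors, NF-kB and STAT3 transcription factors, their brakes, and inducible enzymes. They were taken by name, and each was read from the probe with the highest mean signal among the array probes whose accession maps to it. Of the 36, 33 had a named probe, out of 15284 named genes in all. Nfkb1, Relb and Tnfaip3 had none and are not analysed here. To be tested, a gene needed a group in which the scanner software called its probe well above background on each of the 3 arrays. That held for 31 of the 33, and for 11802 of the 15284. Cxcl2 was well above background on 1 array of each group, and Il6 on none.

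RNA of the renal cortex came from 6 male Sprague-Dawley rats (Crl:CD(SD)), bought at 5 weeks of age. The stock is outbred, the age at the first dose is not given in the sources used here, and each rat had its own single-colour (Cy3) Agilent array. The 3 vehicle rats received corn oil for 4 weeks, and the other 3 received tris(2-chloroethyl)phosphate (TCEP), an organophosphate flame retardant, at 400 mg/kg/day for the same 4 weeks. The comparison asks whether inflammatory transcripts of the cortex differ after TCEP.

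NF-kB dimers rest in the cytoplasm bound to inhibitors such as the product of Nfkbia. Signals from the TNF, interleukin-1 and Toll-like receptors lead to breakdown of the inhibitor, and the freed dimer binds kB sites and switches on chemokine, cytokine and adhesion genes, together with its own brakes. In injured kidney, tubule cells, endothelium and leukocytes release such chemokines, which draw in neutrophils, monocytes and T cells. STAT3 is the factor that IL-6 family cytokines activate, and Socs3 encodes its feedback inhibitor.

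The kB consensus, the 10-letter pattern that NF-kB binds, is shown here because it is the sequence that ties many of these genes to 1 factor. It was searched on both strands in the 250 bases before the start of each gene (RefSeq, rat build GRCr8). Promoters of 28 of the 36 genes were in that table. The consensus was found in 12 of the 28 (42.9%) and in 967 of 27457 promoters of all genes (3.52%). Several of the 36 are textbook NF-kB targets, so this share describes the list and is not a result of the arrays. Matches on both strands overlap in Cxcl1, Cxcl2 and Vcam1, and in Tlr2, which is not printed. Capitals mark the matched letters, including where overlapping matches join, and each stretch reads 5′ to 3′ on the strand of its gene. The stretches are Cxcl1 at chr14:17479375-17479425 (minus strand), Cxcl2 at chr14:17467299-17467349 (minus), Cxcl10 at chr14:15988859-15988908 (plus), Cxcl11 at chr14:15973634-15973683 (plus), Il6 at chr4:5894614-5894663 (minus), Vcam1 at chr2:206742847-206742896 (minus), Nfkbia at chr6:78597074-78597123 (minus) and Nfkb2 at chr1:255108334-255108373 (plus).
Cxcl1: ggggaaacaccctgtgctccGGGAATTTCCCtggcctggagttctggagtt
Cxcl2: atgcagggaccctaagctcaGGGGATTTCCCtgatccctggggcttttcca
Cxcl10: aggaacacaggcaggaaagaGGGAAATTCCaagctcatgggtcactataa
Cxcl11: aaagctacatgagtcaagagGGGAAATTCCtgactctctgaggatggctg
Il6: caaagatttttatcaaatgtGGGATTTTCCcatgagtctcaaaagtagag
Vcam1: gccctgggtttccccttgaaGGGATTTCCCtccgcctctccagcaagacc
Nfkbia: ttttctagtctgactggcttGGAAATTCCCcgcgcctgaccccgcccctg
Nfkb2: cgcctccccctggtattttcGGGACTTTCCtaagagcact

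Levels below are log2 processed signals minus the log2 75th percentile of the array, so that 0 is that percentile. Levels of different genes come from different probes and are not compared. A difference is the TCEP mean less the vehicle mean of these log2 levels, tested with limma, and each ± is an SD over 3 arrays. The share of the 61657 non-control probes called well above background ran from 67.2% to 69.3% between arrays. The vehicle arrays lay on slide 1 and the TCEP arrays on slide 2, with separate scan times, so slide and treatment cannot be told apart. In whole cortex, fewer cells of a type and less RNA per cell cannot be told apart either.

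Chemokine, cytokine and NF-kB genes gave no call between TCEP and vehicle cortex. Of the 31 tested members 0 passed a Benjamini-Hochberg adjusted p of 0.05 in limma, against a background of 0% of the 11802 genes. At an unadjusted p under 0.05 there was 1 member, Stat3, against a background of 8.36% of genes. 8 members had higher and 23 had lower means with TCEP, while 52.5% of all genes had higher means. Without scaling between arrays the split was 12 higher and 19 lower, with a median of -0.03 against 0.05 over all genes. With scaling, the median difference was -0.08 over the members and 0.01 over all genes. That lean rested on a single array. Without vehicle replicate 2, 17 members were higher and 14 lower, and the median was 0.03.

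**Figure D1:**
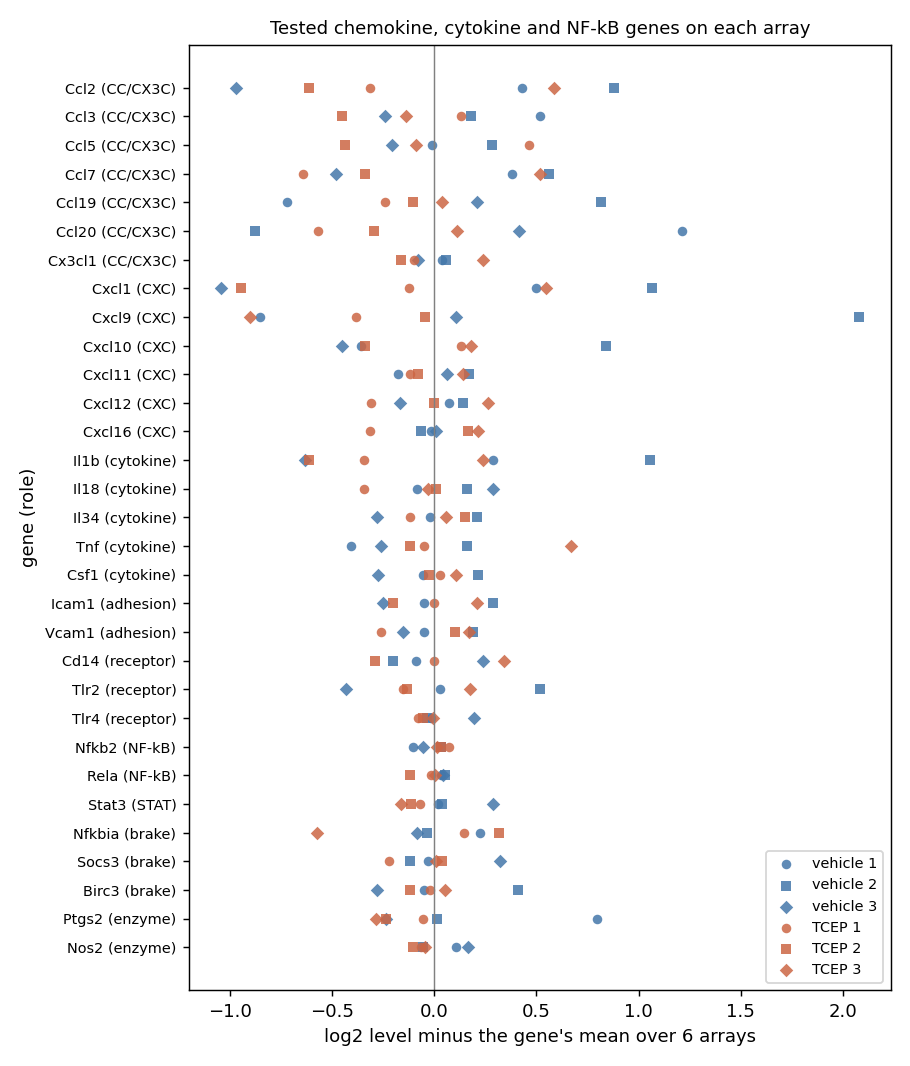
Log2 level of each of the 31 tested genes on each array, minus that gene's mean over the 6 arrays (horizontal axis), with blue for the 3 vehicle arrays and orange for the 3 TCEP arrays. Cxcl9, Cxcl1, Ccl2, Ccl20 and Il1b spread most widely within the vehicle group, and blue and orange points overlap for every gene except Rela and Stat3.

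The monocyte attractants Ccl2 and Ccl7, ligands of the receptor Ccr2, are next to each other on chromosome 10, with 0 protein-coding genes between them. Ccl2 was at 0.02, 0.47 and -1.38 on the vehicle arrays and at -0.72, -1.02 and 0.18 on the TCEP arrays. Both the highest and the lowest value belonged to vehicle rats. The difference was -0.22 (95% confidence interval -1.56 to 1.12), and leaving out 1 array gave -0.76 (without vehicle replicate 3) to 0.16 (without vehicle replicate 2). Ccl7 was at -4.13, -3.95 and -4.99 in vehicle and at -5.15, -4.85 and -3.99 in TCEP, a difference of -0.30 (SE 0.39). It was -0.06 without TCEP replicate 1, -0.10 without vehicle replicate 2 and -0.64 without TCEP replicate 3. For both genes vehicle replicate 3 was the lowest vehicle array and TCEP replicate 3 the highest TCEP array.

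Ccl3 and Ccl5, which attract T cells and macrophages, also overlapped between groups. Ccl3 was at -0.44, -0.78 and -1.20 in vehicle and at -0.83, -1.41 and -1.10 in TCEP, a difference of -0.31 (SE 0.23). Leaving out 1 array gave -0.50 (vehicle replicate 3) to -0.12 (vehicle replicate 1), and -0.16 for TCEP replicate 2. Ccl5 was at 1.39, 1.68 and 1.19 in vehicle and at 1.86, 0.96 and 1.31 in TCEP, a difference of -0.04 (SE 0.25). TCEP rats held both the highest and the lowest Ccl5 value, and a further Ccl5 probe differed by -0.15.

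Ccl19, which guides T cells and dendritic cells through Ccr7, was at 0.47, 2.01 and 1.40 in vehicle and at 0.95, 1.09 and 1.23 in TCEP. The vehicle rats spanned a wider range than the TCEP rats and enclosed them, with a difference of -0.20 (SE 0.38) that was 0.16 without vehicle replicate 2 and -0.62 without vehicle replicate 1. Ccl20, the ligand of Ccr6, was at -0.99, -3.08 and -1.79 in vehicle and at -2.77, -2.50 and -2.09 in TCEP. Here vehicle replicate 2 was the lowest array, and the other vehicle arrays lay above all 3 TCEP arrays. The difference was -0.50 (SE 0.53) and rested on both extreme vehicle arrays. It was -1.06 without vehicle replicate 2 (limma adjusted p = 0.558) and -0.02 without vehicle replicate 1. A further Ccl20 probe ordered the vehicle arrays alike, at -1.69, -3.71 and -2.32, and differed by -0.71. Cx3cl1, the membrane-bound chemokine fractalkine, was at 5.29, 5.31 and 5.17 in vehicle and at 5.15, 5.09 and 5.49 in TCEP. Its difference was -0.02 (95% confidence interval -0.31 to 0.28). In all, 7 of 7 members of the CC and CX3C group had lower means, with a median of -0.22, and 0 passed an unadjusted limma p of 0.05. That count changed when single arrays were left out. Without vehicle replicate 2, 3 of 7 were lower and the median was 0.01, with Ccl2 at 0.16, Ccl5 at 0.09, Ccl19 at 0.16 and Cx3cl1 at 0.01. Without TCEP replicate 2, Ccl2 (0.03), Ccl5 (0.17) and Cx3cl1 (0.06) were above 0, as was Cx3cl1 (0.03) without TCEP replicate 1.

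The neutrophil attractants Cxcl1 and Cxcl2, which act through Cxcr2, are adjacent on chromosome 14. Cxcl1 was at -2.70, -2.13 and -4.24 in vehicle and at -3.32, -4.14 and -2.65 in TCEP. Its order over the arrays followed that of Ccl2, with vehicle replicate 2 highest and vehicle replicate 3 lowest, and its difference of -0.35 (SE 0.63) was 0.10 without vehicle replicate 2 and -0.96 without vehicle replicate 3. Cxcl2 was well above background on vehicle replicate 1 (-4.47) and TCEP replicate 1 (-4.98) alone and was not tested. Its signal on the other 4 arrays was between -7.76 and -6.52, where values have no order.

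Cxcl9, Cxcl10 and Cxcl11 are interferon-inducible ligands of Cxcr3, a chemokine receptor on T cells. They follow each other on chromosome 14 with 0 protein-coding genes between neighbours, yet spread very differently. Cxcl9 was at -4.46, -1.53 and -3.50 in vehicle and at -3.99, -3.65 and -4.51 in TCEP. Vehicle replicate 2 stood alone at the top. The difference was -0.89 (SE 0.74), the furthest from 0 among the tested members, and it was -0.07 without that array, -1.54 without vehicle replicate 1 and -0.54 with normexp background correction. Cxcl10 was at -0.39, 0.81 and -0.48 in vehicle and at 0.10, -0.37 and 0.15 in TCEP, with the same array highest. Its difference was -0.02 (SE 0.37) and 0.39 without vehicle replicate 2. Cxcl11 was at -0.36, -0.01 and -0.12 in vehicle and at -0.30, -0.26 and -0.04 in TCEP, a difference of -0.04 (95% confidence interval -0.33 to 0.26). Vehicle replicate 2 was again highest, by a small margin. The kB consensus was found before Cxcl10 and Cxcl11, as printed above, and not in the 250 bases before Cxcl9.

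Cxcl12, which holds leukocytes and progenitors through Cxcr4, and Cxcl16, a scavenger receptor and ligand of Cxcr6, are the remaining CXC chemokines. Cxcl12 was at 4.23, 4.30 and 3.99 in vehicle and at 3.85, 4.16 and 4.42 in TCEP. The difference was -0.03 (SE 0.16), and its 2 further probes gave -0.08 and -0.02. Cxcl16 was at 4.49, 4.44 and 4.51 in vehicle and at 4.19, 4.67 and 4.72 in TCEP, a difference of 0.05 (SE 0.15). The 3 vehicle arrays lay close together between TCEP replicate 1 and the other TCEP arrays. Without TCEP replicate 1 the Cxcl16 difference was 0.21 (limma adjusted p = 0.629). Of the 6 CXC members tested, 5 were lower and 1 higher, and without vehicle replicate 2 1 was lower and 5 higher.

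**Figure D2:**
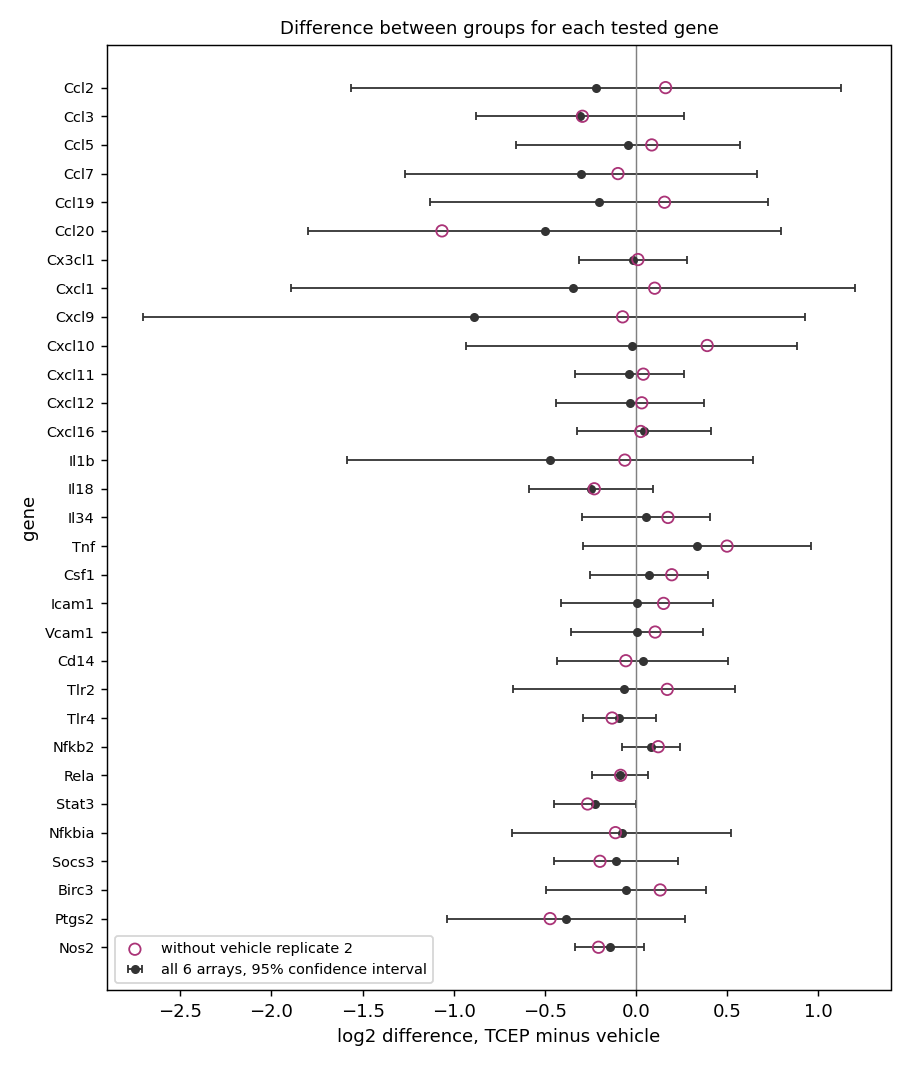
Log2 difference between TCEP and vehicle for each of the 31 tested genes with its 95% confidence interval from limma (filled points and bars), and the difference without vehicle replicate 2 (open circles). The interval of Stat3 ends just below 0, the 30 others span 0, and open circles lie right of the filled points for Cxcl9, Cxcl10, Ccl2 and Cxcl1 and left of the filled point for Ccl20.

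Among cytokines, Il1b, Il18 and Tnf encode the secreted triggers of NF-kB signalling. Il1b was at -0.30, 0.47 and -1.22 in vehicle and at -0.93, -1.20 and -0.35 in TCEP. Vehicle replicate 2 was highest and vehicle replicate 3 lowest, as for Ccl2 and Cxcl1. The difference of -0.47 (SE 0.45) was -0.06 without vehicle replicate 2 and -0.91 without vehicle replicate 3. Il18 was at -0.19, 0.05 and 0.18 in vehicle and at -0.45, -0.10 and -0.14 in TCEP, a difference of -0.24 (SE 0.14, adjusted p = 0.689) that was -0.13 without TCEP replicate 1. Vehicle replicate 1 lay below TCEP replicates 2 and 3. Tnf was at -2.56, -1.99 and -2.41 in vehicle and at -2.20, -2.27 and -1.48 in TCEP, a difference of 0.34 (SE 0.25, adjusted p = 0.753). TCEP replicate 3 was highest, and vehicle replicate 2 lay above the other TCEP arrays. Without TCEP replicate 3 the Tnf difference was 0.09, and with the mean over probes it was 0.18. A further Tnf probe was not well above background on any array.

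Csf1 and Il34 encode the ligands of Csf1r, on which resident macrophages depend. Csf1 was at -0.60, -0.33 and -0.82 in vehicle and at -0.52, -0.57 and -0.44 in TCEP, a difference of 0.07 (SE 0.13). Il34 was at 4.49, 4.72 and 4.23 in vehicle and at 4.39, 4.66 and 4.57 in TCEP, a difference of 0.06 (SE 0.14). For both genes the TCEP values lay inside the vehicle range. Il6, the fever and acute phase cytokine, was not well above background on any array. Its signal was between -8.26 and -7.77, while the lowest signal called well above background was between -6.06 and -5.75 across arrays.

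The adhesion molecules Icam1 and Vcam1, which capture leukocytes on endothelium and on injured tubules, had closely similar means in both groups. Icam1 was at 1.45, 1.79 and 1.25 in vehicle and at 1.50, 1.30 and 1.71 in TCEP, a difference of 0.01 (95% confidence interval -0.41 to 0.42). Vcam1 was at 2.46, 2.70 and 2.36 in vehicle and at 2.25, 2.61 and 2.68 in TCEP, a difference of 0.01 (95% confidence interval -0.35 to 0.37). Vehicle replicate 2 was the highest array for both. The Vcam1 promoter holds the kB consensus.

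The pattern receptors sense bacterial and damage signals upstream of NF-kB. Tlr2 was at -0.60, -0.11 and -1.06 in vehicle and at -0.78, -0.76 and -0.45 in TCEP, a difference of -0.07 (SE 0.25). Vehicle rats held its highest and lowest values. Tlr4, the lipopolysaccharide receptor, was at -2.65, -2.67 and -2.44 in vehicle and at -2.71, -2.69 and -2.64 in TCEP, a difference of -0.09 (95% confidence interval -0.29 to 0.11) that was -0.02 without vehicle replicate 3. Cd14, its co-receptor, was at -0.76, -0.87 and -0.43 in vehicle and at -0.67, -0.96 and -0.33 in TCEP, a difference of 0.04 (SE 0.19).

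The NF-kB subunit genes had the smallest spread within groups of the 31 tested members. Rela, the p65 subunit of the classical NF-kB dimer, was at 1.32, 1.34 and 1.33 in vehicle and at 1.27, 1.17 and 1.29 in TCEP. All TCEP arrays lay below all vehicle arrays, by a difference of -0.09 (SE 0.06, adjusted p = 0.742). A further Rela probe gave -0.05, a dimmer one 0.05, and normexp background correction 0.06. Nfkb2, the precursor of the p52 subunit of the alternative pathway, was at -0.08, 0.06 and -0.03 in vehicle and at 0.10, 0.06 and 0.04 in TCEP, a difference of 0.08 (95% confidence interval -0.08 to 0.24). Its dimmer probe gave -0.14.

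Stat3 was at 2.62, 2.64 and 2.89 in vehicle and at 2.53, 2.49 and 2.44 in TCEP. All TCEP arrays lay below all vehicle arrays, with vehicle replicate 3 highest. The difference was -0.23 (SE 0.09, unadjusted limma p = 0.0496, adjusted p = 0.596), or 85.5% of the vehicle level, and an exact permutation test of the 6 arrays gave p = 0.1, the smallest it allows. A further Stat3 probe was at 0.89, 0.89 and 1.25 in vehicle and at 0.72, 0.58 and 0.62 in TCEP, a difference of -0.37. Without vehicle replicate 3 the first probe's difference was -0.14. Its unadjusted limma p stayed under 0.05 in 7 of 16 alternative settings, among them 1 of the 6 that left out an array. It was 0.164 without scaling, 0.303 with spike-in centring, 0.0595 with no filter on dim probes and 0.0971 with the replicate block. Rela and Stat3 were the 2 of 31 members whose groups did not overlap, against a background of 15.6% of genes. Both were lower, where the background is 6.99% of genes, and 0 members had all TCEP arrays above, where it is 8.66%.

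Nfkbia and Socs3 encode brakes of these pathways. Both are switched on by the factors they restrain, and so are commonly read as an output. Nfkbia, the inhibitor of NF-kB, was at 2.32, 2.06 and 2.01 in vehicle and at 2.24, 2.41 and 1.52 in TCEP, a difference of -0.08 (SE 0.24). TCEP rats held its highest and lowest values. Socs3 was at -1.89, -1.98 and -1.54 in vehicle and at -2.08, -1.82 and -1.85 in TCEP, a difference of -0.11 (SE 0.14) that was 0.02 without vehicle replicate 3. Birc3 was listed with the brakes, and encodes an apoptosis inhibitor that also regulates NF-kB signalling. Birc3 was at -2.54, -2.08 and -2.77 in vehicle and at -2.51, -2.61 and -2.44 in TCEP, a difference of -0.06 (SE 0.18). Its highest and lowest values were vehicle replicates 2 and 3.

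Of the inducible enzymes, Ptgs2, the prostaglandin synthase COX-2, was at -4.36, -5.14 and -5.39 in vehicle and at -5.21, -5.39 and -5.44 in TCEP. Vehicle replicate 1 stood above the other 5 arrays, and the difference was -0.38 (SE 0.27, adjusted p = 0.733). It was -0.08 without vehicle replicate 1 and -0.06 with normexp. Nos2, the inducible nitric oxide synthase, was at -3.03, -3.19 and -2.97 in vehicle and at -3.20, -3.24 and -3.18 in TCEP, a difference of -0.14 (SE 0.08, adjusted p = 0.676). Vehicle replicate 2 lay within the TCEP range of Nos2, and without it the difference was -0.21 (limma adjusted p = 0.560). The Nos2 difference was -0.04 with normexp. A further probe of each enzyme was not well above background on any array.

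The precision of these differences varied widely between genes. The 95% confidence interval lay within a 1.5-fold change in either direction for 16 of 31 members, within a 2-fold change for 23 and within a 4-fold change for 30, Cxcl9 being the exception. Over all genes tested, 91.8% had an interval within a 2-fold change. The median SD within groups was 0.25 over the members and 0.13 over all genes. It was 1.10 for Cxcl9, 0.94 for Cxcl1, 0.81 for Ccl2, 0.78 for Ccl20 and 0.67 for Il1b, each larger than that of at least 97.3% of the genes tested. At the other end it was 0.05 for Rela and 0.06 for Nfkb2. Of the 24 tested members with a promoter entry, the 9 with a kB match had differences between -0.50 and 0.08 and a median SD of 0.36. The 15 without a match had differences between -0.89 and 0.34 and a median SD of 0.24. The search covered 1 pattern in 250 bases, so no match does not mean that a gene lacks a kB site.

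**Figure D3:**
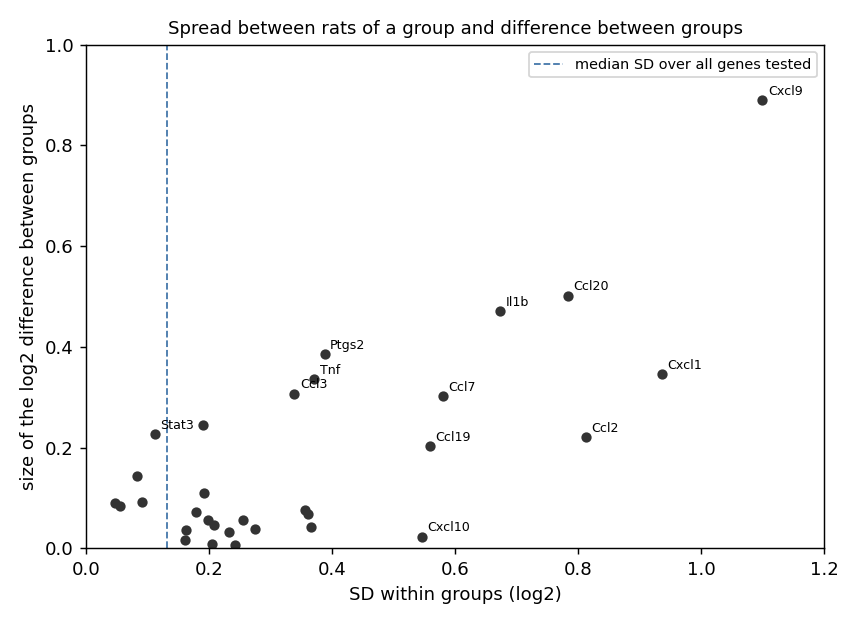
SD within groups of the log2 level (horizontal axis, pooled over the 2 groups) and size of the log2 difference between TCEP and vehicle (vertical axis) for the 31 tested genes, with the median SD of all genes tested as a dashed line. Cxcl9, Cxcl1, Ccl2, Ccl20 and Il1b combine the widest spread with differences smaller than that spread, while for Stat3 and 5 others at the left, Il18, Nos2, Rela, Nfkb2 and Tlr4, the difference exceeds the spread.

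The arrays on which the members were high or low were compared next. Vehicle replicate 2 was the highest array for 15 of 31 members (48.4%), against 15.3% of all genes tested. Vehicle replicate 3 was the lowest array for 9 members (29.0%), against 21.9% of all genes tested. The median deviation of the members from their own means was 0.17 on vehicle replicate 2 and -0.15 on vehicle replicate 3, with -0.10, -0.12 and 0.11 on the TCEP arrays. The CXC chemokines had a median deviation of 0.51 on vehicle replicate 2. Their highest array was vehicle replicate 2 for 4 of 6 genes. The CC and CX3C chemokines had a median deviation of 0.38 on vehicle replicate 1 and 0.28 on vehicle replicate 2. Their highest array was vehicle replicate 2 for 3 of 7 genes and vehicle replicate 1 for 2.

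Leukocyte markers were looked at on the same arrays. The mean deviation of each leukocyte list was highest on vehicle replicate 2, and elsewhere the lists parted from the members. On vehicle replicate 3 it was 0.17 for macrophage, -0.66 for neutrophil and -0.18 for lymphocyte markers, with a member median of -0.15. On TCEP replicate 3 it was -0.14, -0.41 and -0.09 in that order, with a member median of 0.11. Of 8 neutrophil markers with a probe, 6 were tested, with 5 lower and 1 higher means in TCEP, and Elane and Mmp8 were not well above background on any array. Their summed signal, in units of the array's 75th percentile, was 1.15, 3.12 and 0.596 in vehicle and 0.587, 1.15 and 0.663 in TCEP. S100a9 and S100a8, the brightest of them, were highest on vehicle replicate 2, at 0.78 and -0.14. Of 10 lymphocyte markers with a probe, 9 were tested, with 4 higher and 5 lower, and their summed signal was 1.93, 3.32 and 2.16 in vehicle and between 2.20 and 2.49 in TCEP. Of 14 macrophage and monocyte markers, 12 were tested and 12 had lower means with TCEP (median -0.16). At an unadjusted limma p under 0.05 there were 0, against 8.36% of all genes tested. Without vehicle replicate 1 there were 4, against 700 of the 11802 genes tested. The summed signal of the macrophage markers was 145, 201 and 158 in vehicle and between 139 and 149 in TCEP. These sums are linear, so the brightest genes weigh most in them, S100a9 and S100a8 for neutrophils and Lyz2 for macrophages. The brightest, Lyz2, was highest on vehicle replicate 2 (6.81), and Cd163 was not well above background on any array. Without vehicle replicate 2 the macrophage median was -0.05, with 10 of 12 lower, and the neutrophil median went from -0.46 to -0.11. The part of these cells in the chemokine values was not tested.

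**Figure D4:**
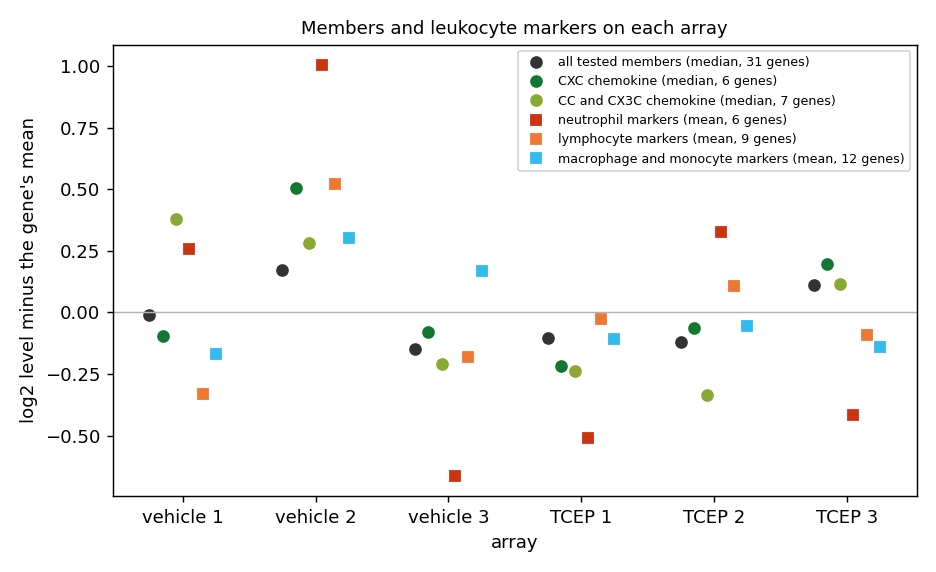
Deviation from each gene's own mean over 6 arrays (log2, vertical axis) on each array (horizontal axis), as the median over the tested members and their chemokine groups (circles) and the mean over leukocyte marker lists (squares). Vehicle replicate 2 is the highest array for the members (0.17), the CXC chemokines (0.51) and the neutrophil markers (1.00), and vehicle replicate 1 for the CC and CX3C chemokines (0.38). On TCEP replicate 3 the members lie at 0.11, and the neutrophil, lymphocyte and macrophage markers at -0.41, -0.09 and -0.14.

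Other cells and handling were looked at in the same way. Endothelial markers (8 tested, 2 higher and 6 lower) had a median difference of -0.06, fibroblast and mesangial markers (6 tested, 4 higher) 0.09, proximal tubule markers (9 tested, 5 higher) 0.03, podocyte markers (6 tested, 6 lower) -0.22, thick limb and distal tubule markers (4 tested, 3 lower, 2 of them at an unadjusted limma p under 0.05) -0.33, collecting duct and medulla markers (7 tested, 5 lower, 2 of them at that p) -0.20 and fat markers (3 tested, 3 higher) 0.23. Without vehicle replicate 1 the collecting duct median was -0.03. The fibroblast and proximal lists each had 1 higher gene at that p, and the immediate early list 1 lower gene. Over all genes tested, 4.24% were higher and 4.13% lower at that p, and each of these lists is short. The medians of 4 lists turned sign in some setting. Without vehicle replicate 2 the lymphocyte median went from -0.02 to 0.22 and the proximal median to -0.03, and without vehicle replicate 3 the fibroblast median was -0.02 and the fat median -0.08. Immediate early genes, which respond to tissue handling, had 3 of 10 members higher, a median of -0.19, and their highest mean deviation, 0.57, on vehicle replicate 1. Vehicle replicate 1 was also the highest array for 3 of 31 members (9.7%), Ptgs2, Ccl20 and Ccl3, against 15.6% of all genes tested. The part of handling in those values was not tested. Of the proximal tubule genes, which mark the cortex, 9 of 9 passed the background filter, with Miox at 9.39 ± 0.06 and Slc13a3 at 8.49 ± 0.12 in vehicle rats.

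Receptors and decoys of these ligands were compared as a further list. Of 29, 25 had a probe and 18 were tested, with 3 higher and 15 lower means and 0 at an unadjusted limma p under 0.05. The median was -0.06. Without vehicle replicate 2 the split was 8 higher and 10 lower, with 3 genes at that p, against 1008 of the 11802 genes tested. Ackr3, a scavenger of Cxcl12 and Cxcl11, was at 1.00, 0.49 and 1.01 in vehicle and at -0.07, 0.26 and 0.66 in TCEP, a difference of -0.55 (SE 0.23, adjusted p = 0.600). It was -0.29 with normexp, and TCEP replicate 3 lay inside the vehicle range. Cxcr3, the receptor of Cxcl9, Cxcl10 and Cxcl11, was at -4.65, -2.84 and -3.53 in vehicle and at -3.12, -2.54 and -2.84 in TCEP, a difference of 0.83 (SE 0.46, adjusted p = 0.682). Vehicle replicate 1 was the low array there, and without it the difference was 0.34. Tnfrsf1a, the main TNF receptor, differed by 0.15 (SE 0.08).

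Components of NF-kB and JAK-STAT signalling divided almost evenly. Of 55, 41 had a probe and 39 were tested, with 18 higher and 21 lower, a median of -0.02, and 1 gene in each direction at an unadjusted limma p under 0.05 (backgrounds 4.24% higher and 4.13% lower). Without scaling between arrays 25 were higher and 14 lower, and the median was 0.02, against 0.05 over all genes tested. Cflar, the caspase-8 inhibitor that NF-kB induces, was at 2.39, 2.40 and 2.39 in vehicle and at 2.77, 3.22 and 2.67 in TCEP, a difference of 0.49 (SE 0.15, adjusted p = 0.543). All TCEP arrays lay above the 3 vehicle arrays, which agreed closely, and the difference was 0.32 without TCEP replicate 2 and 0.33 with normexp. Socs1, an inhibitor of JAK signalling, was at -4.69, -4.89 and -4.98 in vehicle and at -5.18, -5.16 and -5.27 in TCEP, a difference of -0.35 (SE 0.09, adjusted p = 0.528). Socs1 is dim, and its difference was -0.01 with normexp. Traf2, an adaptor of the TNF receptors, differed by -0.18 (SE 0.08), also without overlap, and by -0.01 with normexp. Of the 39 genes, 1 had all TCEP arrays above all vehicle arrays and 3 had all below (backgrounds 8.66% and 6.99% of genes).

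In a list of other chemokines, cytokines and inflammatory outputs, 44 of 48 genes had a probe and 35 were tested. They divided into 19 higher and 16 lower, with a median of 0.03 that ran from -0.02 to 0.06 when each array was left out. At an unadjusted limma p under 0.05 were 3 lower genes and 0 higher genes (backgrounds 4.13% lower and 4.24% higher). Cxcl13, the B cell attractant, was at 1.14, 0.84 and 0.71 in vehicle and at -0.62, 0.27 and 0.11 in TCEP. All TCEP arrays lay below all vehicle arrays. Of the 35 genes, 3 were separated in that way and 3 had all TCEP arrays above (backgrounds 6.99% and 8.66% of genes). The Cxcl13 difference was -0.98 (SE 0.25, adjusted p = 0.528), and it was -0.71 without TCEP replicate 1 and -0.96 with normexp. Ccl22, a macrophage and dendritic cell chemokine, was at -2.64, -2.59 and -2.50 in vehicle and at -2.86, -2.72 and -2.90 in TCEP, a difference of -0.25 (SE 0.08, adjusted p = 0.543) that was -0.05 with normexp. Ptges, the prostaglandin E synthase that works with Ptgs2, was at 0.80, 0.61 and 0.95 in vehicle and at 0.30, 0.25 and 0.63 in TCEP, a difference of -0.39 (SE 0.14, adjusted p = 0.557). TCEP replicate 3 just exceeded vehicle replicate 2 for Ptges.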

How the data were processed

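Scanner output was made with Feature Extraction 10.7.1.1 from Agilent, per the file headers, or 10.7, per the submitters' processing notes. Per the file headers, the deposited values are a processed intensity, background-subtracted and detrended and not scaled between arrays, the median intensity of spot and local background, and other columns of flags of 0 or 1. The deposited series matrix holds the processed intensity divided by a constant within 0.146% of the array's 75th percentile. Its column medians were 0.104 to 0.107.

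Of 61657 non-control probes, 12 flagged as outliers were left out. 27460 (44.5%) were named through accessions in a RefSeq table (GRCr8, names only), giving 15284 genes. Log2 signal minus the log2 75th percentile was the value tested, in R 4.3.3 with lmFit and eBayes of limma 3.58.1 (two-sided, group as sole term), with Benjamini-Hochberg adjustment over all genes tested. The fit was tested on simulated data. Python 3.11.15 drew the figures. The members and gene lists were chosen with earlier results of these data known. Named were all members, the 3 genes of smallest unadjusted p from each further pathway list, and from each marker list its 2 brightest genes, of which those of 2 lists and Lyz2 are printed. The number of arrays limits the precision. The alternatives were quantile normalization, no scaling, spike-in centring, normexp on median signals (offset 50), no filter, detection on all 6 arrays, the mean over probes, the series matrix, a replicate block, a variance trend, and leaving out each array. The series' design text calls the rats biological replicates.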

Additional observations from a re-analysis of the deposited data

How the results depend on the processing

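Under the 16 alternative settings 0 genes passed the adjusted threshold, and the smallest adjusted p of a member was 0.322 (Nfkb2 with normexp), and of any other named pathway gene 0.265 (Cxcl13 with normexp). Genes at an unadjusted limma p under 0.05 numbered 987, with 361 under spike-in centring and 1581 under normexp. Members at that p numbered 1, with 0 under no scaling, spike-in centring and no filter on dim probes, 2 under normexp (Stat3, Nfkb2) and the mean over probes (Stat3, and Ptgs2, whose further probe was not above background), and 0 to 2 when each array was left out. The median member difference of -0.08 lay between -0.14 and 0.03 when each array was left out and was above 0 without vehicle replicate 2 alone. No label says that replicate numbers pair the rats. Same-numbered arrays had correlations of -0.15, -0.10 and 0.23 between deviations. Those of unlike-numbered arrays ran from -0.33 to 0.37, so the correlations cannot decide whether rats were paired. The replicate block gave 854 genes and 1 member at an unadjusted limma p under 0.05 and a median of -0.08. That member was Il18 (limma p 0.0357) and not Stat3 (0.0971). Of 640 values of 40 named genes, 595 kept their direction. Signs turned without scaling for Cxcl10 (0.0194), Cxcl11 (0.00525), Cxcl12 (0.00955) and Cx3cl1 (0.0256), under normexp for Cx3cl1 (0.0604), Icam1 (-0.068) and Rela (0.0603), under quantile normalization for Icam1 (-0.00526) and Vcam1 (-0.0179), and under the mean over probes for Nfkb2 (-0.0273). The cause was not tested. Leaving out each array turned signs for 18 genes, with these ranges. Ccl2 ran from -0.76 to 0.16, Ccl5 from -0.28 to 0.17, Ccl19 from -0.62 to 0.16, Cxcl1 from -0.96 to 0.10, Cxcl10 from -0.25 to 0.39, Cxcl11 from -0.14 to 0.0404, Cxcl12 from -0.17 to 0.11, Cxcl16 from -0.0500 to 0.21 and Cx3cl1 from -0.14 to 0.0595. Il34 ran from -0.0682 to 0.18, Icam1 from -0.12 to 0.15, Vcam1 from -0.0743 to 0.14, Nfkbia from -0.25 to 0.19, Socs3 from -0.20 to 0.0202, Csf1 from -0.046 to 0.20, Birc3 from -0.21 to 0.13, Cd14 from -0.12 to 0.19 and Tlr2 from -0.30 to 0.17. The slide as a block was not run, since each slide held 1 group. Signal close to background limits Il6 and Cxcl2 most. Ptgs2 (down to -5.44), Ccl7 (-5.15) and Cxcl9 (-4.51) were dim as well. A further Ccl7 probe differed by -0.64 and was well above background on 2 arrays of each group.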
